A study of Mus musculus with 2 samples.

Results

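The genes described here were Crh, its binding protein gene Crhbp, and the cortical neuropeptide genes Npy, Sst, Vip, Cck, Penk, Pdyn, Tac1 and Cort. They were chosen by name, and their probes were found by matching the RefSeq accession of each array probe to a gene symbol. All 10 genes were found, among 37074 distinct gene names on the array. Neuropeptides are cut from larger precursor proteins, stored in dense core vesicles and released during strong firing, after which they act on G protein-coupled receptors. In the cortex most of these precursors are made by GABAergic interneurons, and several of the genes mark interneuron classes. Crh is best known as the hypothalamic hormone that starts the stress response of the pituitary and adrenal glands, and it is also made by interneurons of the cortex.

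RNA came from the prefrontal cortex (PFC) of male C57Bl/6 N sea mice, 9 to 10 weeks old at the start of the experiment. The C group was the unstressed control, and the CMS group was exposed to chronic mild stress (CMS) for 4 weeks. Each group was 1 pool on 1 one-color Agilent array, with 7 mice in each pool according to the design text and 10 in each group according to the methods. The control mice lived 3 to 5 per cage and the CMS mice lived alone, so the stressors and single housing cannot be told apart. With 1 pool per group there were no replicates and no test between the groups could be made. Errors given below are the spread between spots and the scanner software's own estimate, and both leave out the spread between mice.

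Both arrays were on 1 slide, and 65.2% of the spots on the C array and 65.9% on the CMS array were well above background, which is the scanner software's flag for a detected spot. No spot was saturated. Signals are processed intensities scaled so that each array had a mean of 2500, and log2 ratios are of CMS over C. A gene was counted as changed above 2-fold or below 0.5 times, and 699 of 27119 gene names with a ratio (2.58%) passed this rule. Of these, 539 were higher in the CMS group and 160 lower, a split of 77.1% higher that became 62.9% with no scaling and 87.5% with normexp background correction followed by quantile normalization. Marker genes of cortical neurons were read beside the tissue label. All 14 pyramidal neuron markers were well above background in both groups, among them Slc17a7, Tbr1 and Camk2a, and so were 18 of 22 interneuron markers. The same held for 13 of 14 striatal and all 11 hepatocyte markers, so detection alone cannot tell this tissue from others.

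None of the 10 neuropeptide genes passed the 2-fold rule in either direction, beside 2.58% of all gene names. All 10 had a signal well above background in both groups. Their log2 ratios ran from -0.28 for Penk to 0.03 for Vip with a median of -0.09, and the median of all gene names was -0.03. Below 0 lay 7 of the 10, or 70% of them, and 58.8% of all gene names. Each gene had 1 probe, so no second probe could be set beside it. Sst alone was spotted more than once, with 10 spots on each array. In pooled tissue RNA, fewer cells of a type and less RNA per cell cannot be told apart.

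**Figure D1:**
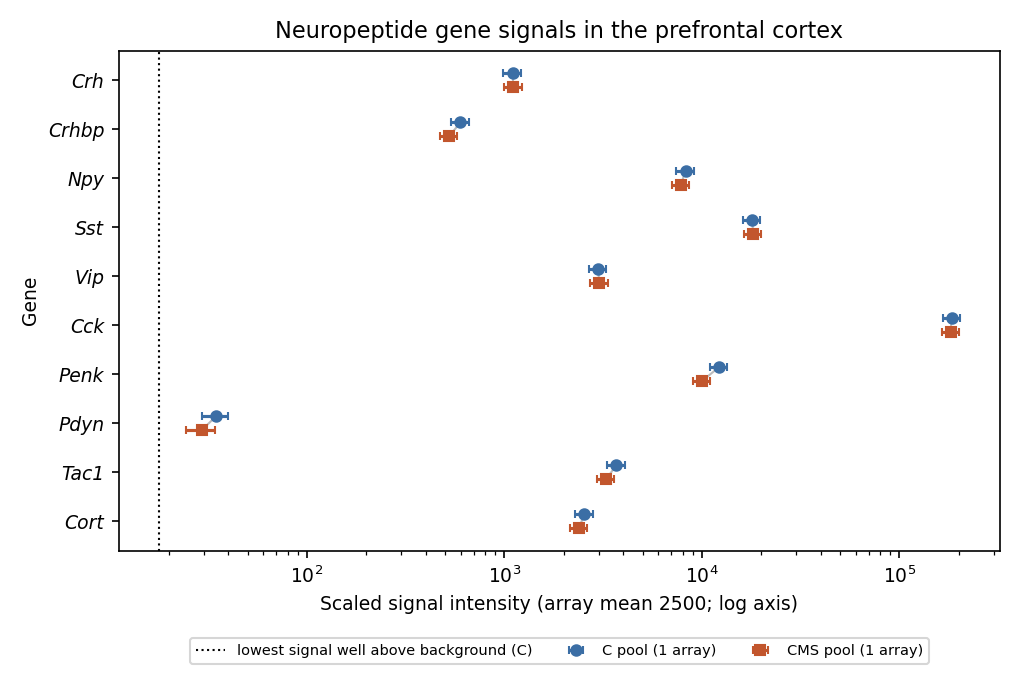
Scaled signal intensity (log axis) of each gene in the C pool (circles) and the CMS pool (squares), 1 array each, with the scanner software's error estimate as bars and the lowest signal that counted as detected on the C array as a dotted line. Each pair of points lies close together, and Pdyn, at 34.6 and 29.3, is the gene nearest to background.

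Several neuropeptide genes are textbook targets of CREB, a transcription factor that is switched on by neuronal activity and binds the cAMP response element (CRE). RefSeq promoter windows around the start of transcription (GRCm38.p6) were given for 8 of the 10 genes, all but Crh and Penk. Both strands were searched for the full CRE, TGACGTCA, and for its core, TGACG, which the full CRE contains. The full CRE was in 1.79% of 32851 windows of all genes and the core in 20.8%. These are shares of windows, whereas a gene was counted if any of its windows held the sequence. Of genes with a window and a ratio, 407 held the full CRE and 12495 did not. The core was in 4041 such genes and absent from 8861. Of the 8 neuropeptide genes, Sst held the full CRE and 6 held the core, namely Crhbp, Sst, Vip, Cck, Tac1 and Cort. Of the 9 activity-induced genes with a window, 2 held the full CRE and 9 the core. The last 100 bases before the start are shown for these 6 genes and for Fos. They place the core in genes within 2-fold and in one that was more than 2-fold lower. Capitals mark the cores on either strand, read 5′ to 3′ along the gene, so that the full CRE of Sst appears whole.
Sst, chr16:23890845-23890944, minus strand: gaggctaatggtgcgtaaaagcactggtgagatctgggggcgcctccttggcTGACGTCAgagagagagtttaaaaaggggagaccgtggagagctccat
Vip, chr10:5639118-5639217, plus strand: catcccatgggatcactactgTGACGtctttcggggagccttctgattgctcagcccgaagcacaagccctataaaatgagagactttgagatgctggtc
Cck, chr9:121495695-121495794, minus strand: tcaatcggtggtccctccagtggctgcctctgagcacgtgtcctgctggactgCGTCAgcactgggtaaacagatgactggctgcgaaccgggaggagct
Tac1, chr6:7554961-7555060, plus strand: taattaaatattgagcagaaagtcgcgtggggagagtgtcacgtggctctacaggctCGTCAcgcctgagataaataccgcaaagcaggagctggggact
Cort, chr4:149126764-149126863, minus strand: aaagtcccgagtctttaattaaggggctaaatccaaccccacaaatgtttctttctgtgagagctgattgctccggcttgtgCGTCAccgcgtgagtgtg
Crhbp, chr13:95444832-95444931, minus strand: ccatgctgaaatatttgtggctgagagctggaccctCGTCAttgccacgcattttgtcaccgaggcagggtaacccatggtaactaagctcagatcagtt
Fos, chr12:85473790-85473889, plus strand: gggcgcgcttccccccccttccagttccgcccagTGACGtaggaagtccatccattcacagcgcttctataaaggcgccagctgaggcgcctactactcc

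The corticotropin-releasing hormone gene differed little between the pools, by less than either error estimate. Crh (NM_205769) read 1098 in C and 1110 in CMS, giving a log2 ratio of 0.02. The ratio turned below 0 with median scaling and with no scaling, but it stayed above the median of all gene names in every setting tried, by 0.05 to 0.07. A factor applied to a whole array cannot change that distance. The scanner software's own error estimate for the log2 ratio of Crh was 0.20. Spots of the same probe, over 102 repeated probes within 1 log2 unit of the brightness of Crh, gave log2 ratios with an SD of 0.07. Of 5410 gene names of like brightness, 70.9% were as low as Crh or lower.

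Crhbp encodes the secreted protein that binds CRH and keeps it from its receptors. Crhbp (NM_198408) read 599 in C and 525 in CMS, which was 12.3% lower, for a log2 ratio of -0.19. This was more than the SD of 0.08 between spots at its brightness and less than the scanner software's error of 0.20. Of 5731 gene names of like brightness, 12.5% were as low or lower. The log2 ratio of Crh minus that of Crhbp was 0.21, a difference that does not depend on a factor applied to a whole array. The receptors of CRH showed small ratios too. Crhr1, the main CRH receptor of the cortex, had signals of 2932 and 2814 on its brighter probe, a log2 ratio of -0.06, and its dimmer probe gave -0.17. Crhr2 had signals of 165 and 163, a log2 ratio of -0.02. The urocortin gene Ucn, whose peptide binds the same receptors, had signals of 59.3 and 50.7, and Ucn2 and Ucn3 were not well above background in either group.

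Somatostatin is the inhibitory peptide of a large class of dendrite-targeting interneurons, and Sst was the gene with repeated spots. Over its 10 spots, the signal of Sst (NM_009215) ran from 16978 to 19094 with a median of 18105 in the C pool. In the CMS pool it ran from 17272 to 18816 with a median of 18280. The spots of the 2 arrays overlapped over most of their ranges. The means were 17954 ± 625 (SD, 10 spots) and 18186 ± 476 (SD, 10 spots). The log2 ratio of the means was 0.02, and spot by spot it ran from -0.05 to 0.07 with an SD of 0.04, with 7 spots above 0 and 3 below. The direction turned with median scaling and with no scaling. The coefficient of variation between the spots was 3.48% in C and 2.62% in CMS.

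**Figure D2:**
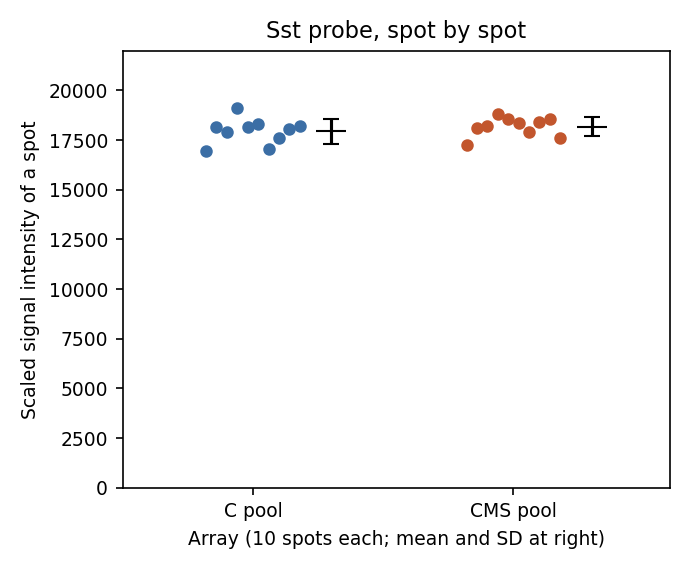
Scaled signal intensity of each of the 10 spots of the Sst probe on the C array and the CMS array (axis from 0), with the mean and SD of the spots at the right of each group. The means are 17954 and 18186, and the spots of the groups overlap.

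Cortistatin is a close relative of somatostatin that binds the same receptors, and Cort is expressed in part of the same interneurons. Cort (NM_007745) read 2542 in C and 2380 in CMS, giving a log2 ratio of -0.10. The SD between spots at this brightness was 0.06, and 29.0% of 4740 gene names of like brightness were as low or lower. Among the somatostatin receptors, the log2 ratio was -0.08 for Sstr1, -0.03 for Sstr2, 0.03 for Sstr3, -0.01 for Sstr4 and -0.12 for Sstr5. The brighter probe is given for Sstr1, whose dimmer probe was not well above background in the CMS group.

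Neuropeptide Y, a peptide linked to resilience to stress and made partly by the somatostatin interneurons, was near the median of all genes. Npy (NM_023456) read 8255 in C and 7793 in CMS, giving a log2 ratio of -0.08 with an SD between spots at this brightness of 0.05. Of 3056 gene names of like brightness, 26.9% were as low or lower. Npy1r had a log2 ratio of -0.01, Npy2r of -0.30 and Npy5r of -0.02. Npy2r was dim, with signals of 93.5 and 75.7.

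Vip, made by interneurons that mainly inhibit other interneurons, read 2973 in C and 3026 in CMS (NM_011702). Its log2 ratio of 0.03 was the highest of the 10, though Crh and Cck were higher under normexp with quantile normalization, and it was below 0 with median scaling and with no scaling. Its receptor genes lay lower, at -0.20 on the brighter probe of Vipr1 and -0.30 for Vipr2, with signals of 422 and 342. The second probe of Vipr1 was dim, with signals of 73.1 and 54.4, and gave -0.43. Adcyap1r1, also in the receptor list, was at -0.14. Cholecystokinin is made by one class of interneurons and by many pyramidal neurons. Cck (NM_031161) read 183582 in C and 181711 in CMS. Its log2 ratio was -0.01, which turned above 0 under normexp with quantile normalization and with the 75th percentile as the scale. Its main brain receptor, Cckbr, had log2 ratios of -0.18 and -0.27 on its probes.

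Penk, the precursor of the enkephalins, which act on the delta and mu opioid receptors, was the lowest of the 10 genes, except under quantile normalization, where Pdyn was lower. Penk (NM_001002927) read 12144 in C and 10010 in CMS, which was 17.6% lower, for a log2 ratio of -0.28. The SD between spots was 0.05 over 29 repeated probes of like brightness, and the scanner software's error was 0.20, so the ratio lay beyond both. Penk was the single member of the 10 beyond the scanner software's error. Among all gene names 9.16% were as low or lower, and among the 2592 gene names of like brightness 0.887% were. In all 11 other settings the ratio stayed below 0. Its distance to the median of all gene names, unchanged by any factor applied to a whole array, ran from -0.25 to -0.22. Whether mice differ by this much within a group was not measured.

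Pdyn, the precursor of the dynorphins, which act on the kappa opioid receptor, had a low signal. Pdyn (NM_018863) read 34.6 in C and 29.3 in CMS, giving a log2 ratio of -0.24. These signals were 1.94 and 1.67 times the lowest signal well above background. At this brightness the SD between spots was 0.28, larger than the ratio, and 29.4% of 5698 gene names were as low or lower. The difference was not detectable with this signal. Of the opioid receptors, Oprm1 had signals of 22839 and 26690, a log2 ratio of 0.22 that was the highest among the receptor genes. Oprd1 and Oprk1 were dim, with log2 ratios of -0.03 and -0.08.

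Tac1 encodes the precursor of substance P and neurokinin A. Tac1 (NM_009311) read 3685 in C and 3272 in CMS, which was 11.2% lower, for a log2 ratio of -0.17. The SD between spots at this brightness was 0.05, and 8.58% of 4299 gene names of like brightness were as low or lower. The ratio was within the scanner software's error of 0.20. Tacr1, the receptor for substance P, had signals of 79.1 and 51.5, a log2 ratio of -0.62 that was the lowest among the receptor genes, from a dim probe.

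**Figure D3:**
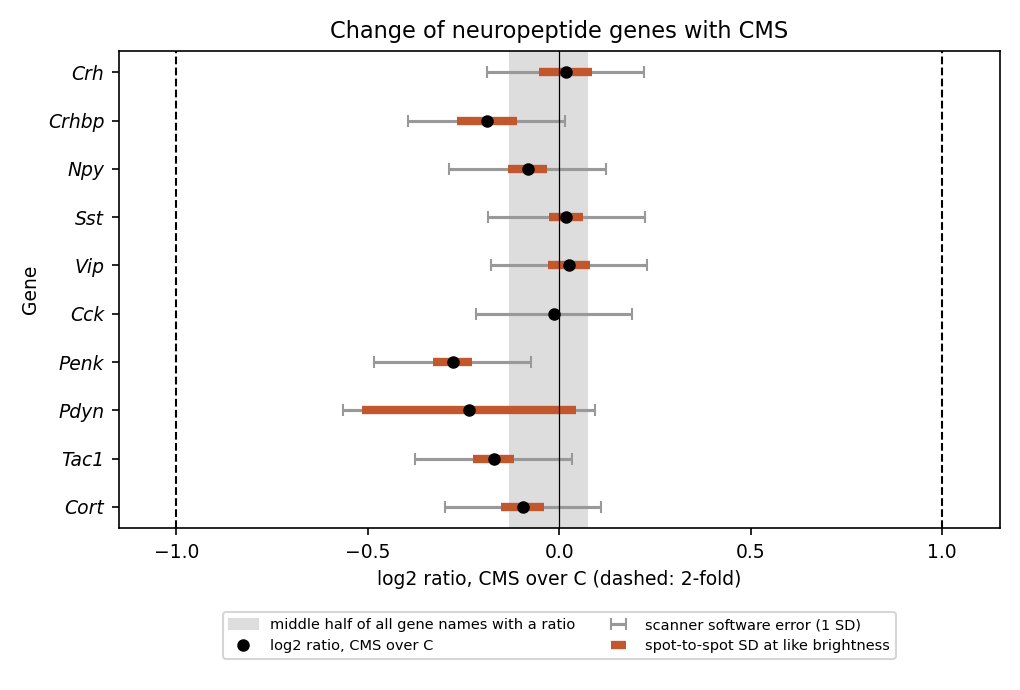
Log2 ratio of CMS over C for each gene (points), with the scanner software's error (thin bars, 1 SD) and the SD between spots of repeated probes of like brightness (thick bars, absent for Cck, which had too few such probes). The grey band holds the middle of all gene names, from -0.13 to 0.07, and the dashed lines mark 2-fold. All 10 points lie far inside the dashed lines, and Penk, Pdyn, Crhbp and Tac1 lie to the left of the band.

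Penk, Tac1 and Pdyn are abundant in the striatum, which borders the PFC, so striatal markers were read beside them. Of 14 markers of striatal projection neurons, 6 were above 0 and 8 below, with a median log2 ratio of -0.04 against -0.03 for all gene names. Adora2a and Drd1 had log2 ratios of -0.18 and -0.22, and Ppp1r1b had 0.09. The summed signal of the list was 18728 in C and 18484 in CMS. Drd2, named after its values were seen, was detected in the CMS pool alone. Interneuron markers had a median log2 ratio of -0.05 over 19 genes with a ratio, a range from -0.40 for Reln to 0.36 for Htr3a, and summed signals of 66330 and 64519. In that list Gad1, the GABA synthesis enzyme, was at -0.18 and Slc32a1, the vesicular GABA transporter, at -0.09 on its brighter probe, whereas Pvalb was at 0.09 and Lhx6 at 0.25. The part of these cell types in the neuropeptide values was not tested.

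The neuropeptide genes were also set beside lists of the wider pathway. Of 42 other neuropeptide precursors and granins, 31 had a ratio, with a median log2 ratio of -0.09, and none was more than 2-fold higher, beside 1.99% of all gene names. One was more than 2-fold lower, beside 0.590%. This was Avp, the vasopressin gene, named after its value was seen. Avp read 77.6 in C and 15.2 in CMS, where it was not well above background, so it was at least 4.41-fold lower there. Vasopressin acts with CRH on the pituitary. Among the precursors well above background in both groups, the neurotensin gene Nts was lowest, with signals of 63.6 and 44.1 and a log2 ratio of -0.53. The oxytocin gene Oxt was highest, with signals of 69.6 and 81.6 and a log2 ratio of 0.23.

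Of 23 genes for receptors of these peptides, 19 had a ratio, with a median of -0.06, and none passed 2-fold, beside 2.58% of all gene names. The 16 genes for peptide processing and breakdown all had a ratio, with a median of -0.00, and none passed 2-fold, beside the same 2.58%. They included the prohormone convertase Pcsk2, at -0.03, and the carboxypeptidase Cpe, at -0.05, each on its brightest probe. Mme, which encodes the enkephalin-degrading enzyme neprilysin, was highest with signals of 29.0 and 45.1 and a log2 ratio of 0.63, near background. Ece2 was lowest, at -0.22.

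**Figure D4:**
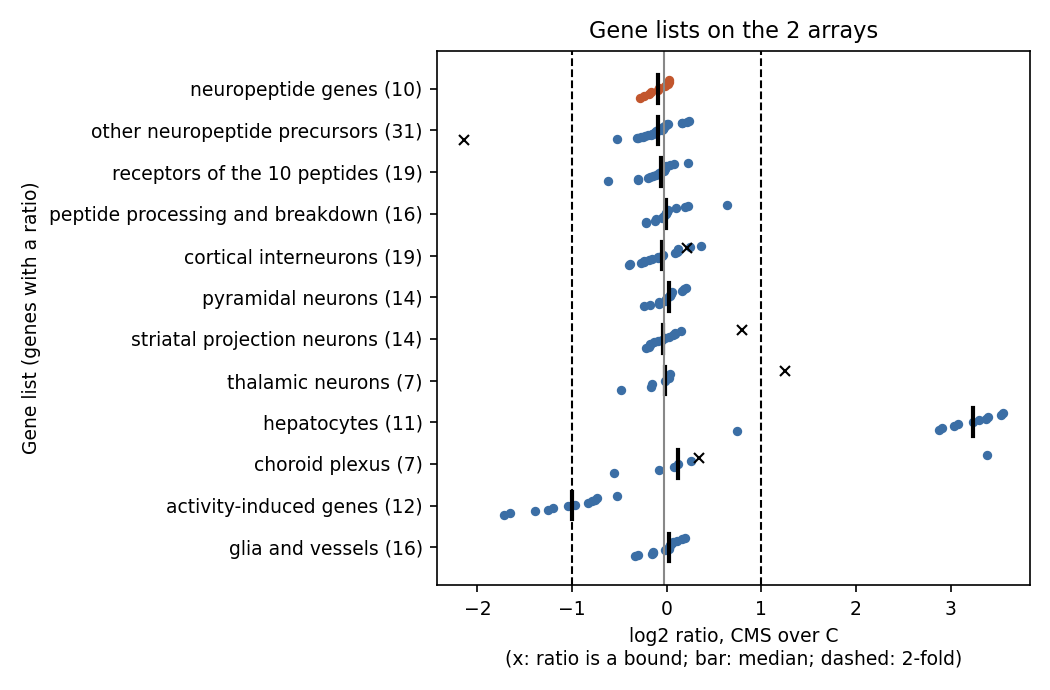
Log2 ratios of CMS over C for the genes of each list that had a ratio (number in brackets). Circles are genes well above background in both groups, crosses are bounds, black bars are medians, and the dashed lines mark 2-fold. The 10 neuropeptide genes sit between -0.28 and 0.03, the activity-induced genes sit between -1.72 and -0.53, and the hepatocyte markers have a median of 3.23.

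The genes were also set beside 12 activity-induced genes, several of which CREB also drives. All 12 had ratios below 0, beside 58.8% of all gene names, with a median log2 ratio of -1.004. More than 2-fold lower were 6, beside 0.590% of all gene names, namely Arc, Egr2, Fos, Nr4a1, Btg2 and Junb. Fos read 1502 in C and 574 in CMS, giving a log2 ratio of -1.39. The highest of the 12 was Egr1 at -0.53, below the -0.28 of Penk. The full CRE of Sst began 48 bases before the start, and the core of Fos shown began 66 bases before it. The log2 ratio was 0.02 for Sst and -1.39 for Fos, which held the core and no full CRE. The activity-induced genes with a full CRE were Dusp1 and Btg2, at -0.97 and -1.20. Over all genes with a window and a ratio, the median log2 ratio was -0.04 for 407 genes with a full CRE and -0.04 for 12495 genes without one. A match of letters is a description and not a binding site, and the part of CREB in any of these values was not tested.

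RNA typical of liver was higher in the CMS pool. Of 11 hepatocyte markers 10 were more than 2-fold higher, beside 1.99% of all gene names. Their median log2 ratio was 3.23 and their summed signals were 9863 and 87140. Alb, the albumin gene, read 1509 in C and 17486 in CMS. The 10 neuropeptide genes had summed signals of 232867 and 228043, most of it from Cck, at 183582 and 181711. The part of liver RNA in the neuropeptide values was not tested.

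**Figure D5:**
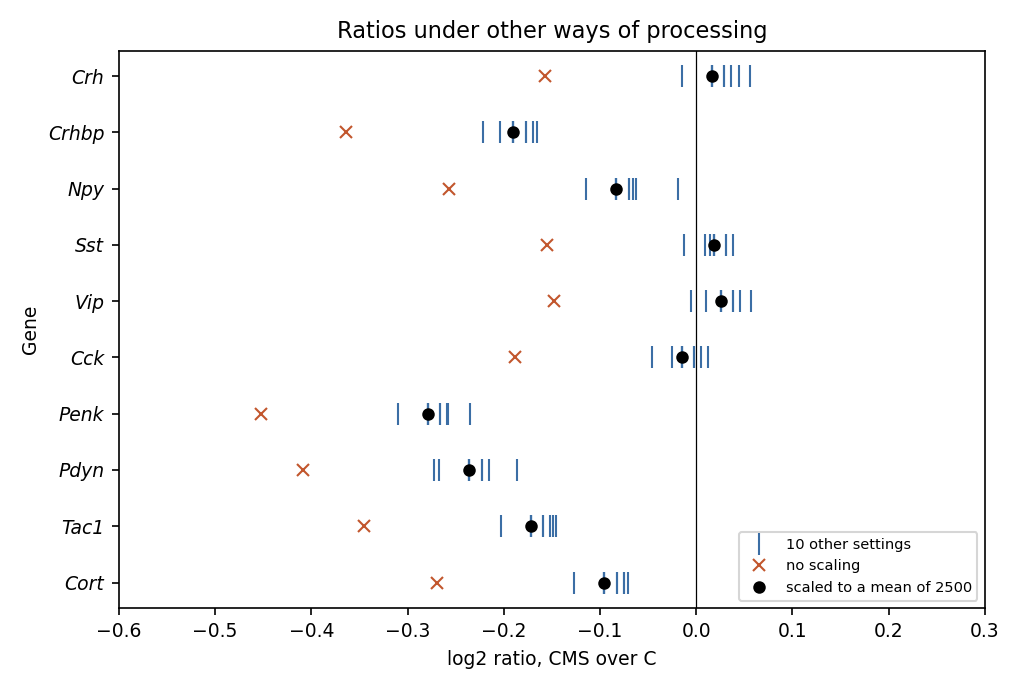
Log2 ratio of CMS over C for each gene with each array scaled to a mean of 2500 (circles), under 10 other settings (ticks) and with no scaling (crosses). The crosses lie to the left because the CMS array was dimmer as a whole. Crh, Sst and Vip fall below 0 with median scaling and with no scaling, Cck lies above 0 under normexp with quantile normalization and with the 75th percentile, and Penk, Pdyn, Crhbp, Tac1, Cort and Npy stay below 0.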

How the data were processed

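Total RNA of each pool was labelled with Cy3 and hybridized to an Agilent SurePrint G3 Mouse array. The authors deposited processed signal intensities from Feature Extraction 10.10.1.1, linear values from which the software had taken background and spatial trends, with no scaling between arrays, and a table of the same intensities multiplied by 1 factor per array. That factor, 1.80 for C and 2.05 for CMS, gives a trimmed mean of 2500 (2% off each end). The medians of that table were 149 and 153.

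Here control spots and outlier spots (130 in C, 133 in CMS) were left out, spots of a probe were averaged and signals were scaled to an array mean of 2500. Probes were taken as detected if 0.5 or more of their spots were well above background. A probe dim on 1 array was set to at least the lowest signal well above background (17.8 in C, 17.6 in CMS), so that its fold is a bound, and a probe dim on both arrays had no ratio. A gene was read from its brightest probe (mean log2 signal over both arrays). Accessions without versions were named through the RefSeq table of GRCm38.p6, which gave a symbol to 30740 of 59305 spots. Other probes kept their identifiers.

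Spots of 342 repeated probes gave log2 ratios with an SD of 0.13, and for each gene this SD was also taken over repeated probes within 1 log2 unit of its brightness. The scanner software's errors of both arrays were combined in quadrature. The number of arrays limits the precision. Genes named are the 10 members and, for the precursor, receptor, processing and activity-induced lists, those past 2-fold or else the largest rise and fall, with Crhr1 and Crhr2, and for cell type markers those past 2-fold and up to 4 defining genes, plus further receptors, precursors, processing and marker genes named after their values were seen. Some marker genes counted in the lists are not reported here by name. Members and lists were chosen with earlier results of these data known. The calling of genes was tested on simulated data, which held the spread between spots and none between mice or pools. The alternatives were other scalings, normexp correction with an offset of 50 on median spot intensities followed by quantile normalization, the deposited table, and other treatments of outlier spots, dim probes and several probes. Python 3.11.15, numpy 2.4.6, pandas 2.3.3, matplotlib 3.10.9, R 4.3.3 and limma 3.58.1 were used.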

Additional observations from a re-analysis of the deposited data

How the results depend on the processing

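No paired analysis was possible because each group has 1 array, and no replicate could be left out. None of the 10 genes passed 2-fold under any of the 11 alternatives. The median log2 ratio of the 10 genes, -0.09, was -0.26 with no scaling, by construction, since the median of all gene names moved from -0.03 to -0.20. Relative to the median of all gene names it was -0.06 in both, a distance that a factor applied to a whole array cannot change. Under normexp with quantile normalization the median of the 10 genes was -0.045, and that distance was -0.026. Of 110 values of single genes, 100 moved by less than the SD of 0.13 between spots and 10 moved by more, all with no scaling. Each gene had 1 probe, without outlier spots and detected on both arrays. The settings for outlier spots, dim probes and several probes could therefore hardly move these values. The deposited table repeated the trimmed mean scaling. The limit of 0.13 was also wider than the SD at the brightness of most members, from 0.04 for Sst to 0.08 for Crhbp. The 699 changed gene names were 1090 when dim probes kept their own signal and 338 when probes had to be detected on each array. They were 687 under quantile normalization and 303 under normexp with quantile normalization, which changed background correction and normalization at once. Relative to the median of all gene names, the members ran from -0.25 to 0.08 over all settings. Agreement between probes could not be compared for the 10 genes, because each had 1 probe. Signal over background limits Pdyn most.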

Other observations

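The lists for other tissues gave values that belong to no neuropeptide gene. Of the thalamic neuron markers, Gbx2 was detected in the CMS pool alone, at least 2.38-fold higher than in the C pool, and the median of that list was -0.02 over 7 genes. Of the choroid plexus markers, Ttr, which the liver also makes, went from a signal of 453 to 4711, while the median of the list was 0.11 over 7 genes. Markers of glia and vessels had a median log2 ratio of 0.02 over 16 genes, and pyramidal neuron markers had the same median of 0.02 over 14.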
